A study of Mus musculus with 4 samples.

Results

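The *Smgc*-rich cells of the mouse salivary gland were defined as barcodes in which *Smgc*, the gene of submandibular gland protein C, gave at least 500 of every 10000 unique molecular identifiers (UMIs) and in which *Ptprc*, the pan-leukocyte gene for CD45, gave none. A UMI is a random tag on a captured RNA molecule, so UMIs count molecules. The rule was met by 237 of 15707 barcodes, or 1.51% (exact binomial 95% interval 1.32 to 1.71). These few cells held 74.3% of all *Smgc* UMIs in the matrix and 0.833% of all UMIs. Another 5 barcodes passed the *Smgc* threshold but carried *Ptprc*.

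The single-cell RNA-seq profiled the submandibular (SMG) and sublingual (SLG) glands of untreated wild-type female C57BL/6N mice aged 6 to 8 weeks, with droplets that capture the 3' ends of transcripts. All 4 samples of the series belong to this 1 group, the labels naming 2 mice and the methods of the study 3. The deposited matrix pools the samples, and its barcodes carry 1 suffix with no barcode listed more than once, so neither gland nor mouse could be assigned to a cell. It was thus handled as 1 sample. Levels are given as UMIs summed over a group per 10000 UMIs, no p-value was computed, and all intervals are 95% intervals that cover counting error only.

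Saliva is made by acinar cells, which are serous when they release watery protein-rich fluid and mucous when they release mucins, and it is modified in ducts. The intercalated duct is the first and narrowest duct segment after the acinus. In rodents SMGC is known as a secretory protein of the immature submandibular gland whose cells are found in intercalated ducts of the adult gland, and as a product of the sublingual gland. Its gene shares its start with *Muc19*, which encodes the large gel-forming mucin of mucous cells.

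In the GENCODE M21 annotation of GRCm38, *Smgc* (ENSMUSG00000047295) lies on the plus strand at chr15:91838265-91861438, and *Muc19* (ENSMUSG00000044021) on the same strand at chr15:91838326-91934555. Only 95 bases of the exons are common to both genes, chr15:91838326-91838420 in the first exon, out of 3410 exonic bases of *Smgc*. The last of the 18 exons of the longest *Smgc* transcript (chr15:91860547-91861435), where 3' counting places most tags, has 0 bases that are exonic in *Muc19*, and the *Muc19* 3' end lies 73117 bases further on. The counted ends of these genes therefore do not overlap. The 250 bases before the RefSeq start (GRCm38.p6, plus strand) are shown for *Smgc*, at chr15:91838078-91838327, because *Muc19* starts at the same place, and for *Pip*, at chr6:41847299-41847548, because its level went with that of *Smgc* among the cells described below. Capitals mark TATAAA, the letters of a TATA box:
Smgc: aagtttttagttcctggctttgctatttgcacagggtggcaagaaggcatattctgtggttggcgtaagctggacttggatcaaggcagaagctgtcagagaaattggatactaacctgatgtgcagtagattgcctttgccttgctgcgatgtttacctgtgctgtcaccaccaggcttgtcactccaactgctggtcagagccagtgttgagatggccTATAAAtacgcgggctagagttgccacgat
Pip: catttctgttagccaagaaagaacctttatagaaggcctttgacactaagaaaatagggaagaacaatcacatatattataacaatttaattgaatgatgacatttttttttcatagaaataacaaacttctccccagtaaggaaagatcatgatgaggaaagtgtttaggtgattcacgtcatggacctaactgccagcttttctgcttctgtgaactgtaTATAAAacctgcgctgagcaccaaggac
The marked letters began 30 bases before the start of *Smgc* and 28 before that of *Pip*. TATAAA was present on either strand in 12.4% of 32851 such windows of mouse genes, and on the strand of the gene in 7.59%. The *Pip* window also held a match on the other strand. TTCNNNGAA, the letters of a STAT5-type site, had 0 matches in the *Smgc* window and 2 in the *Pip* window, beginning 140 and 42 bases before the start, against 7.02% of windows with any. These matches are letters only and say nothing of binding.

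*Smgc* itself, which chose the cells, took 605 UMIs in the median member (82 to 3051). Its level was 1520 UMIs per 10000 (1512 to 1527) over the members together. Single members ran from 507 per 10000 through a median of 1606 to 3825. The members were taken out of every other group, so the gap to those groups is fixed by the rule. There the level was 22.5 in *Muc19* mucous cells, 16.2 in luminal duct cells with few kallikreins, 4.82 in *Dcpp*-rich acinar cells, 2.21 in deep serous cells rich in *Mucl2* and 2.00 in kallikrein-rich duct cells. In *Ptprc*-positive barcodes, which should lack the gene and so show RNA that floats free in the droplets or comes with doublets, it was 7.68. Most barcodes, 9967 or 63.5%, had no *Smgc* UMI at all.

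The threshold did not fall at a gap in the distribution. Among *Ptprc*-negative barcodes 64 lay between 200 and 300 *Smgc* UMIs per 10000, 20 between 300 and 400, 13 between 400 and 500 and 20 between 500 and 600. Beyond this 18 lay between 600 and 800, 19 between 800 and 1000, 50 between 1000 and 1500, 55 between 1500 and 2000, 70 between 2000 and 3000 and 5 above 3000. The members just inside the threshold had 507, 507, 515, 517 and 518 UMIs per 10000, and the barcodes just outside it 486, 481, 480, 448 and 432.

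**Figure D1:**
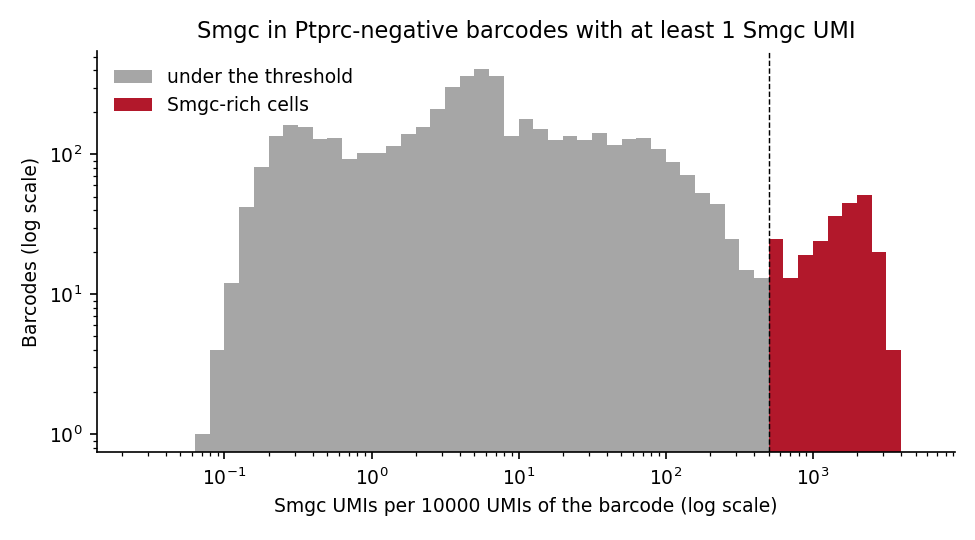
Histogram of *Smgc* per 10000 UMIs (log scale) over *Ptprc*-negative barcodes with at least 1 *Smgc* UMI. The vertical axis counts barcodes (log scale), red bars are the 237 *Smgc*-rich cells and the dashed line is the threshold of 500. The red cells form a mode at about 2000 in these log-spaced bins.

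The members held 1041478 UMIs, with 1462 in the shallowest, 3503 in the median and 17292 in the deepest cell, and a median of 1107 genes (334 to 4242). After every barcode was thinned to 1000 UMIs, which none fell below, the median *Smgc*-rich cell still showed 457 genes. This was close to kallikrein-rich duct cells (448.5) and below luminal duct cells (566), but above *Muc19* mucous cells (286), *Dcpp*-rich acinar cells (153) and deep serous cells (92). A median of 3.99% of a member's UMIs were mitochondrial, with a maximum of 28.3%. With 3 UMIs as the floor of detection, a gene without any UMI in the members can have a level of up to 0.0288 per 10000.

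The groups set beside them were defined by the same kind of rule, in *Ptprc*-negative barcodes only. *Dcpp*-rich acinar cells (3165) had at least 2000 UMIs per 10000 of *Dcpp1* to *Dcpp3*, the demilune and parotid cell protein genes. Deep serous cells (1899) had at least 4000 of *Mucl2* and 10000 UMIs in all. *Muc19* mucous cells (235), kallikrein-rich duct cells (1286) and low-kallikrein luminal duct cells (1059) were set by *Muc19* with *A2ml1*, by *Klk1* with its relatives, and by keratins with kallikreins under 100 per 10000. The genes in these rules differ between the groups by construction. The *Ptprc*-positive barcodes number 1799 and all barcodes other than the members 15470.

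Of the 3 genes given as markers of these cells, *Pip* gave many UMIs and *Agr2* few. *Pip*, prolactin-induced protein, a secreted protein of serous acini, was at 175 UMIs per 10000 (173 to 178), with single cells between 3.69 and 1723 and a median of 147. All members had a *Pip* UMI, but so did 96.6% of *Ptprc*-positive barcodes, so its presence alone says little and its amount is compared below. *Ptprc*-positive barcodes had 130 per 10000 and deep serous cells 220, so members were at 0.80 of the level of the latter and at 4.48 times that of luminal duct cells. *Agr2*, an endoplasmic reticulum chaperone of mucin-making cells, gave 49 UMIs, a level of 0.470 (0.348 to 0.622), in 13.9% of members. Thinned to 1000 UMIs the share with *Agr2* was 2.95% (1.20 to 5.99), against 0.389% (0.157 to 0.800) in *Ptprc*-positive barcodes. The level of *Agr2* was 1.20 in *Muc19* mucous cells and 0.042 in luminal duct cells, with the members between them. Per 10000 UMIs outside the abundant secretory genes, the second scale used below, its ratio to all other barcodes was 1.25 (0.919 to 1.66), against 1.08 for the median of all genes, and its ratios to *Dcpp*-rich and deep serous cells were 0.65 and 0.63, none of them a 2-fold difference.

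*Pip* differed from the other serous products in these cells. *Mucl2*, the most abundant transcript of the whole matrix, had a median of 171 UMIs per member, close to the medians of 164 in luminal duct cells, 138 in kallikrein-rich duct cells and 155 in *Ptprc*-positive barcodes. *Pip* had a median of 57 UMIs per member and of 5 in each of these 3 groups. For every 1000 *Mucl2* UMIs the members held 273 *Pip* UMIs, where deep serous cells held 37.0, luminal duct cells 41.4, kallikrein-rich duct cells 34.0, *Muc19* mucous cells 38.7, *Ptprc*-positive barcodes 39.6 and *Dcpp*-rich acinar cells 68.0. The ratio in members was thus several times that of every other group. *Scgb1b27*, an androgen-binding secretoglobin made by the same serous cells, stood at 205 per 1000 *Mucl2* UMIs in members and at 249 in *Ptprc*-positive barcodes. The ratio was above 100 *Pip* per 1000 *Mucl2* in 187 of 237 members (78.9%), with a median of 274. The same held for 0.211% of deep serous cells, 1.89% of luminal duct cells, 1.50% of *Ptprc*-positive barcodes and 22% of *Dcpp*-rich acinar cells. Within the members *Pip* and *Mucl2* levels had a Spearman correlation of 0.06 over the 237 cells, which come from 1 matrix and share its free RNA.

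**Figure D2:**
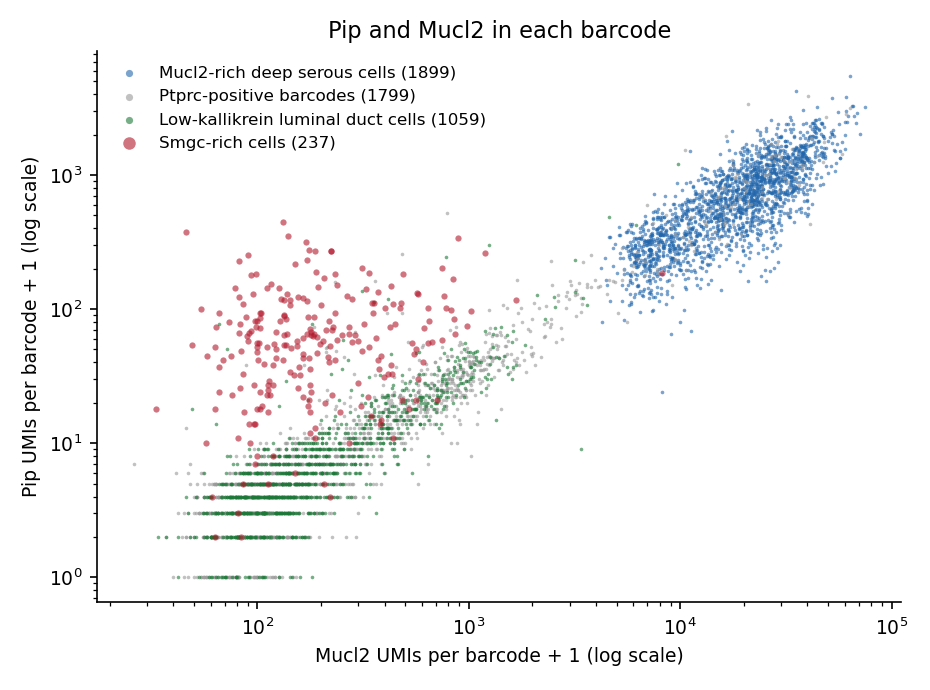
*Pip* against *Mucl2* in UMIs per barcode plus 1 (log axes), where each point is a barcode of the group named in the key. Most *Smgc*-rich cells lie above the band of the other groups drawn, with a median of 57 *Pip* UMIs at a median of 171 *Mucl2* UMIs. Among the groups not drawn are *Dcpp*-rich acinar cells, of which 22% had more than 100 *Pip* per 1000 *Mucl2* UMIs.

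Relative to the total, most genes were higher in *Smgc*-rich cells than in all other barcodes, and the secretory part of the total differed between the groups. All other barcodes held 124059117 UMIs, of which 66056336 were in the 1899 deep serous cells and 21355759 in *Dcpp*-rich acinar cells. Sums over all other barcodes therefore weigh these deep acinar cells most and do not describe a typical other barcode. *Mucl2*, *Pip*, *Smgc* and the *Dcpp*, *Scgb* and *Klk1* family genes, called secretory genes here, took 27.3% of the members' UMIs and 74.6% of those of all other barcodes, 81.8% in *Dcpp*-rich acinar, 87.2% in deep serous and 14.7% in luminal duct cells. Over 9188 genes with enough UMIs the median ratio was 3.23 (1.69 on the log2 scale), and 84.5% were at least 2-fold higher and 3.34% at least 2-fold lower in members. Per 10000 UMIs outside the secretory genes the median ratio was 1.08 over 10084 genes, with 7.77% at least 2-fold higher and 14.1% lower. Ratios below are on this second scale unless stated, and called means at least 2-fold. The rule used *Smgc* and *Ptprc* alone, but with 1 sample these ratios are descriptions and not tests.

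The genes with the highest ratios included non-coding RNAs, a collagen, a metalloproteinase, plasma proteins and a hormone receptor. The 20 genes with the highest ratio over all other barcodes, among those with a UMI in at least 10% of members, were headed by *Smgc* itself at 120. *Col11a1*, a chain of fibrillar type XI collagen best known from cartilage, had a level of 2.87 per 10000 (2.55 to 3.22) in 60.8% of members and a ratio of 108 (87.1 to 136). It had no UMI in kallikrein-rich duct cells and a level of 0.062 in luminal duct cells. *Tll1*, tolloid-like 1, a protease that trims procollagens, had a level of 1.08 (0.894 to 1.30) and a ratio of 73.6 (53.7 to 102). These genes lie at chr3:114030540-114220718 and chr8:64014931-64206271.

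*Prlr*, the prolactin receptor (chr15:10177238-10349180), was found in 78.1% of members, the widest spread of the 20 genes after *Smgc*. Its level was 4.53 (4.13 to 4.96), against 0.383 in kallikrein-rich duct, 0.365 in luminal duct, 0.219 in mucous, 0.075 in deep serous and 0.056 in *Dcpp*-rich acinar cells, a ratio of 16.4 (14.8 to 18.3) over all other barcodes. Thinned to 1000 UMIs, 35.4% of members (29.4 to 41.9) and 0.389% of *Ptprc*-positive barcodes had a *Prlr* UMI. The same thinned comparison gave 27.8% against 0.0556% for *Col11a1*. The members thus stood far above the free-RNA background for both genes.

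Plasma proteins made in liver were among the 20 as well. *Fgg*, the fibrinogen gamma chain (chr3:83007724-83015049), had a level of 3.56 (3.21 to 3.94) in 37.6% of members, with a ratio of 61.3 (52.1 to 72.3). *Hp*, haptoglobin (chr8:109575128-109579172), which binds free haemoglobin, had a level of 4.71 (4.31 to 5.15) in 53.2% and a ratio of 11.8 (10.7 to 13.1). Unlike *Fgg*, which was at 0.118 in luminal duct cells, *Hp* was also at 2.78 there. Over the 237 members *Fgg* and *Hp* had a Spearman correlation of -0.05.

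Of the remaining genes among the 20, *Dcdc2a*, a doublecortin-domain protein of microtubules, had 53.3 (35.1 to 81.4), and *Fam25c* 24.5 (21.7 to 27.6) at a level of 4.07 in 66.7% of members. *Fam25c* also had a level of 1.90 in *Muc19* mucous cells. *Tmem59l* had a ratio of 22.9, *Fam161a*, a centrosomal protein, 14.2, *Ank2*, an ankyrin that anchors membrane proteins to the cytoskeleton, 14.1, *Abcc3*, an export pump for organic anions, 13.1, *Ddx59*, an RNA helicase, 13.0, and *Asrgl1*, an asparaginase, 12.9. RNAs annotated as non-coding made up the rest apart from the protein-coding *5530400C23Rik*. These were *Gm44410* (118), *A530053G22Rik* (63.8), *Gm5860* (29.3), *Gm32846* (18.6) and *Gm34006* (15.4). *Gm44410*, a lincRNA at chr6:60489956-60490445, was found in 41.4% of members. *5530400C23Rik* (chr6:133292216-133295792) had a ratio of 116 but was found in only 18.1% of members.

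**Figure D3:**
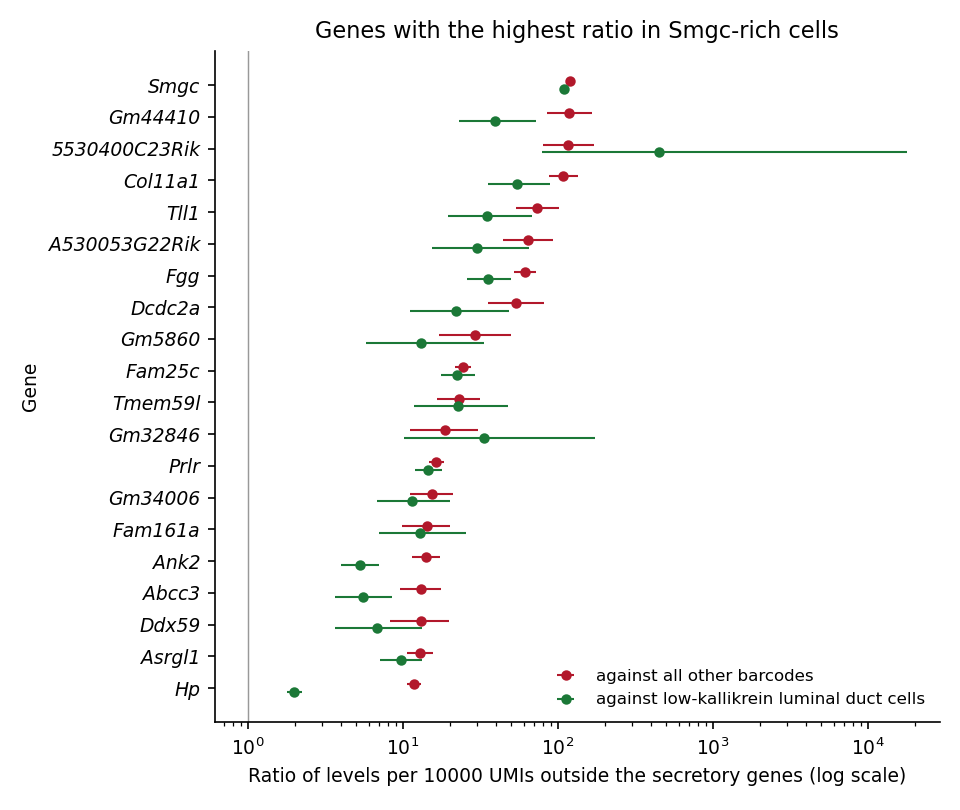
Ratio of the level in *Smgc*-rich cells to that in all other barcodes (and in low-kallikrein luminal duct cells) for the 20 leading genes, per 10000 UMIs outside the secretory genes, on a log axis with 95% counting intervals. *Smgc*, *Gm44410*, *5530400C23Rik* and *Col11a1* lie above 100 against all other barcodes.

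At the other end, the 10 genes with the lowest ratio were all immune genes, among them *Cd74*, *C1qb*, *C1qc*, *Ctss*, *Laptm5* and *Fcer1g*, with *Ptprc* at 0 by the rule. By number of UMIs the members were led by *Smgc*, *Mucl2* (642 per 10000), *Pip* (175), *Scgb1b27* (131) and *mt-Atp6* (98.5), and their 10 most abundant genes took 29.1% of UMIs. The 86 cytosolic ribosomal protein genes took 19.1% of members' UMIs, against 14.2% in luminal duct cells, 9.22% in mucous cells and 4.15% in all other barcodes. This was the highest share of ribosomal protein genes in any of the groups, with *Ptprc*-positive barcodes at 11.2%. These are shares of all UMIs, secretory genes included, so they are smaller where secretory genes take more. *Mucl2* alone was at 3272 per 10000 UMIs in *Ptprc*-positive barcodes, against 642 in members. Shares outside the secretory genes are not given here.

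Intercalated duct genes were mixed. Of 12 intercalated duct genes 5 were at least 2-fold higher than in all other barcodes and 3 lower, with a median ratio of 1.50 (all genes: 1.08, with 7.77% higher and 14.1% lower). On the plain scale 9 of 11 were higher and 1 lower, where 84.5% of all genes were higher. *Sox9*, a transcription factor of duct and progenitor cells, had a level of 6.90 (6.41 to 7.43) in 73.8% of members, with a ratio of 3.15 (2.92 to 3.40). Luminal duct cells had 4.93. *Gstt1*, a glutathione transferase listed as an intercalated duct gene, had a level of 1.13 (0.938 to 1.36), against 0.850 in luminal duct, 0.206 in mucous and 0.007 in deep serous cells, and a ratio of 5.58. *Gfra3*, a GDNF family receptor subunit, had a ratio of 3.50 on 9 UMIs, and *Clu*, the secreted chaperone clusterin, 2.43. *Kit*, the stem cell factor receptor used to mark intercalated ducts, was at 0.432 in members and 1.62 in luminal duct cells. *Kcnn4*, a calcium-gated potassium channel, had a ratio of 0.08, and *Prom1* was also among the lower genes, at 0.49. Against luminal duct cells, where 4.45% of all genes were called higher and 12.8% lower on this scale, 1 of the 12 was higher (*Dcdc2a*, 22.1) and 2 were lower, among them *Kit* (0.31). On the plain scale those background shares were 2.94% and 19.5%.

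Keratins and junction genes of simple epithelium were present, and some of them were called lower than in luminal duct cells, whose rule used the keratins. *Krt18* had a level of 19.3 (18.4 to 20.1) in 97.5% of members and 32.6 in luminal duct cells, and *Krt8* 10.6 (9.97 to 11.2) in 84.0%. Of 13 luminal duct genes, *Krt8* (2.21), *Krt18* (2.08) and *Cldn3* (2.30), a claudin of tight junctions, were called higher than in all other barcodes and *Wfdc2* (0.28) lower, beside 7.77% and 14.1% of all genes. Of the 13, 11 were higher on the plain scale, beside 84.5% of all genes, and on the second scale 8 of 12 were higher than in deep serous cells, beside 21.2% of all genes. Against luminal duct cells no gene of the list was called higher, and *Krt7* (0.20), *Krt19* (0.29), *Cldn4* (0.43), *Tfcp2l1* (0.41), a duct transcription factor, and *Wfdc2* (0.17) were lower, beside 4.45% and 12.8% of all genes. The keratin rule of the luminal group was itself met by 119 of the members (50.2%).

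The acinar side of the profile was selective. Of 14 serous acinar genes 1 was called higher than in all other barcodes, *Lman1l*, related to a cargo lectin of the secretory pathway, at 3.66, and 10 were lower, with a median ratio of 0.06, beside 7.77% of all genes higher and 14.1% lower. Most of the 10 are secreted products such as *Mucl2*, *Prol1*, *Car6*, the peroxidase *Lpo* and the secretoglobins, and *Pip* was among them at 0.39. On the plain scale *Pip* was not lower, with a ratio of 1.10 over all other barcodes. Against luminal duct cells, however, 6 of 13 were higher and none lower, beside 4.45% and 12.8% of all genes. *Aqp5*, the apical water channel of acinar cells, had a level of 4.12 (3.74 to 4.53) in 70.9% of members. Mucous cells had 8.34, deep serous cells 2.00, *Dcpp*-rich acinar cells 1.79 and luminal duct cells 0.522, so members lay 9.27 times (7.78 to 11.1) above the last on the second scale. *Cldn10*, an acinar claudin that passes ions between cells, was at 3.48 and 7.34 times above luminal duct cells. *Bhlha15*, the MIST1 transcription factor of secretory cells, was at 0.384 (0.274 to 0.523) and 5.18 times above them. On the second scale *Aqp5* (0.36), *Cldn10* (0.40) and *Bhlha15* (0.22) were called lower than in deep serous cells, although the plain level of *Aqp5* was higher. *Cldn10* (0.32) was also called lower than in *Dcpp*-rich acinar cells, and *Aqp5* and *Bhlha15* were not called there. The direction against all other barcodes depended on the scale for *Aqp5*, whose log2 ratio was 1.23 per 10000 UMIs and -0.28 outside the secretory genes, and for *Pip*, with 0.14 and -1.37.

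Mucous genes gave a mixed picture. *Muc19* had a level of 2.13 (1.86 to 2.43), against 232 in mucous cells, and a single cell carried 63.5% of the members' *Muc19* UMIs. Thinned to 1000 UMIs, 6.75% of members (3.91 to 10.7) had *Muc19*, against 3.22% of *Ptprc*-positive barcodes (2.46 to 4.15). The mucous list had 1 of 9 genes called higher than in all other barcodes and 5 lower, beside 7.77% and 14.1% of all genes. It had 4 higher and 4 lower on the plain scale, beside 84.5% and 3.34%. On the second scale 5 of 6 were higher than in luminal duct cells and none was lower, beside 4.45% and 12.8% of all genes. These were *Agr2* (13.1), *Muc19* (11.4), *A2ml1* (10.3), *Spdef* and *Creb3l4* (5.96). *A2ml1* gave 177 UMIs in 8.44% of members, against a share of 5.76% of luminal duct cells. The *Muc19* and *A2ml1* ratios thus rest on few cells, and 2 members met the rule of the mucous cells. The gene higher than in all other barcodes was *Creb3l4*, a membrane-bound transcription factor of secretory cells, with a level of 0.470 and a ratio of 3.18 (2.33 to 4.26). *Spdef*, a transcription factor of mucous and goblet cells, was at 0.615 in members, 1.98 in mucous cells and 6.95 times (4.57 to 10.7) above luminal duct cells. *Creb3l1* had a ratio of 0.09, and *B3gnt6*, *Ern2* and *Fcgbp*, which build or accompany mucins, had no UMI in any member. *Ern2* and *Fcgbp* had too few UMIs in the other barcodes to be compared.

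**Figure D4:**
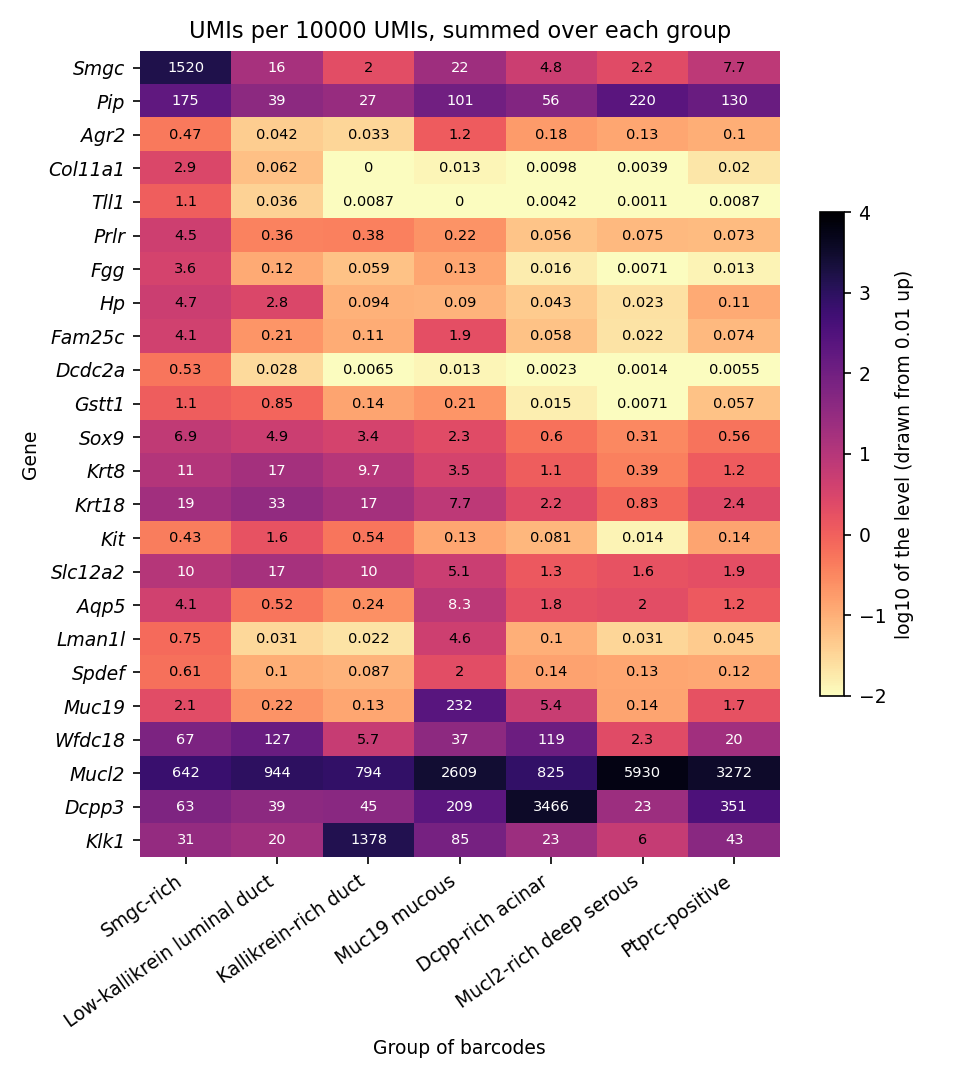
Levels of selected genes (rows) in 7 groups of barcodes (columns), as UMIs per 10000 UMIs with the level printed in each square and colour on a log10 scale. *Smgc*, *Col11a1*, *Prlr* and *Fgg* are high in *Smgc*-rich cells. *Aqp5* is at 4.12 and *Sox9* at 6.90 there, and at 8.34 and 2.32 in *Muc19* mucous cells. These are sums over each group and do not show both genes in the same cell.

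Genes of the wider secretory machinery lay above the median of all genes against luminal duct cells and below it against acinar cells. Of 56 genes of endoplasmic reticulum translocation and folding none was called higher than in all other barcodes on the second scale and 5 were lower (*Derl3*, *Fkbp11*, *Dnajb9*, *Hyou1* and *Ero1lb*), with a median ratio of 0.848 (all genes: 1.08, with 7.77% higher and 14.1% lower). On this scale 15 of the 56 were lower and none higher than in *Dcpp*-rich cells (median 0.620, all genes 1.21, with 10.9% higher and 8.63% lower), and 11 lower and 1 higher than in deep serous cells (median 0.696, all genes 1.37, with 21.2% higher and 6.96% lower). On the plain scale 41 of the 56 were higher and none lower, again beside 84.5% of all genes higher. Against luminal duct cells, beside 4.45% of all genes higher and 12.8% lower, 10 of 55 were higher and 3 lower, with a median of 1.30 (all genes: 0.879). The higher genes were led by *Sec61b*, a subunit of the translocation channel, at 4.05 (3.72 to 4.41). In the list for Golgi and vesicle transport 5 of 26 were higher and none lower than in luminal duct cells, while 5 of 29 were lower and 1 higher than in *Dcpp*-rich cells and 6 lower and 1 higher than in deep serous cells, beside the same shares of all genes. The genes higher than in luminal duct cells included *Rab3d*, a GTPase of secretory granules, at 5.32 (3.89 to 7.29), and *Tmed3*, a cargo receptor, at 4.76.

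Ion transport genes differed among themselves. Of 11 genes of striated ducts and ionocytes 4 were higher than in all other barcodes, namely the apical transporters *Slc13a2* (6.17), *Slc9a3* (4.33) and *Slc5a8* (2.58) and the exocrine gland peptide gene *Esp4* (4.31). The ionocyte factors *Ascl3* (0.17) and *Foxi1* (0.12), the chloride channel gene *Cftr* (0.44) and the sodium channel subunits *Scnn1a* and *Scnn1b* were lower. Beside these counts stand 7.77% of all genes higher and 14.1% lower. Against luminal duct cells none of the 11 was higher and 6 were lower, beside 4.45% and 12.8% of all genes. *Slc13a2* and *Slc9a3* were found mainly in deep members, with 0.921 and 0.793 per 10000 UMIs outside *Smgc* in those of at least 5000 UMIs and 0 and 0.104 in those under 2500. *Slc12a2*, the basolateral cotransporter that loads chloride for secretion, had a level of 10.4 (9.80 to 11.0) in 89.0% of members and 16.5 in luminal duct cells. In the list for acinar fluid secretion 2 of 18 genes were higher than in all other barcodes and 6 lower. This was on the second scale, beside 7.77% and 14.1% of all genes. The higher ones were *Car2*, a carbonic anhydrase, at 2.68, and *Chrm1*, a muscarinic receptor, at 8.52 on 9 UMIs. Kallikrein-duct genes were called lower than in all other barcodes for 13 of 17 and higher for none on the second scale. On the plain scale 2 were lower and 1 higher. Of all genes 14.1% were lower and 7.77% higher on the second scale, and 3.34% and 84.5% on the plain scale. On the second scale 6 of 15 were higher than in deep serous cells, beside 21.2% of all genes, and 9 of 12 higher than in luminal duct cells, beside 4.45%, a group whose rule capped kallikreins. *Klk1* in thinned members (37.1%) was below its share in *Ptprc*-positive barcodes (53.0%).

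Among receptors of hormones, 2 of 9 were higher than in all other barcodes and none lower, beside 7.77% and 14.1% of all genes. The plain scale gave 8 of 9 higher, beside 84.5%. The genes higher on the second scale were *Prlr* and *Thrb*, a thyroid hormone receptor, at 2.26. *Esr1*, the oestrogen receptor alpha gene, gave 3 UMIs in members and *Esr2* none, and both had too few UMIs to be compared.

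Of 22 transcription factors of secretory cells 3 were higher than in all other barcodes (*Creb3l4*, *Sox9* and *Foxa1*, a pioneer factor of epithelia, at 2.41) and 7 lower, beside 7.77% and 14.1% of all genes. The plain scale gave 11 higher and 3 lower, beside 84.5% and 3.34%. The median ratio of the list was below that of all genes on both scales, at 0.766 against 1.08 on the second and 2.19 against 3.23 on the plain scale. *Gata2* and *Gata6* had no UMI in members, and too few in the other barcodes to be compared. Of 16 innate defence genes with enough UMIs 12 were lower and 1 higher (*Clu*) on the second scale, beside 14.1% and 7.77% of all genes. On the plain scale 7 of 15 were lower and 4 higher, beside 3.34% and 84.5%. *Bpifb1*, *Ltf*, *Slpi* and *Dmbt1* had no UMI in members, but had too few in the other barcodes to be compared, so this says little.

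Stress and growth genes gave few calls against all other barcodes and more against deep serous cells. None of 21 immediate early and heat shock genes was called in either direction against all other barcodes on the second scale, beside 7.77% of all genes higher and 14.1% lower. Of the 21, 19 were higher on the plain scale, beside 84.5% of all genes. *Fos* was at 29.4 (28.3 to 30.4), *Atf3* at 22.8 and *Egr1* at 12.1 UMIs per 10000. In the cell cycle list 1 of 11 genes was higher, *Ccnd1*, cyclin D1, at 2.38, and 3 were lower, beside 7.77% and 14.1% of all genes. The median ratio of the list was 0.643 (all genes: 1.08). The plain scale gave 5 of 9 higher and 1 lower. Against deep serous cells, where 21.2% of all genes were higher on this scale, 13 of the 21 immediate early and heat shock genes and 6 of 6 cell cycle genes were higher. *Mki67*, the proliferation marker, gave 5 UMIs in 1.27% of members.

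*Dcpp*-rich acinar, deep serous and luminal duct cells were compared with the members one by one. Over 2052 genes outside the secretory genes, the profile of the members had Spearman correlations of 0.807 with *Dcpp*-rich acinar and 0.796 with luminal duct cells. The values were 0.778 with *Muc19* mucous, 0.775 with deep serous and 0.722 with kallikrein-rich duct cells. *Ptprc*-positive barcodes gave 0.753 and barcodes of no group 0.799. These values are a description across genes that share depth and free RNA. *Smgc*, *Gm44410* and *Col11a1* were among the 5 highest ratios against each of the 3 groups compared. Against *Dcpp*-rich acinar cells *A530053G22Rik* and *Gm5860* completed the 5, against deep serous cells *Tll1* and *Fgg*, and against luminal duct cells *5530400C23Rik* and *Fgg*. *Gm5860* rested on 1 UMI in the *Dcpp*-rich cells, as did *5530400C23Rik* in the luminal duct cells (446, interval 78.4 to 17769). On the plain scale 93.5% of genes were called higher and 1.14% lower than in *Dcpp*-rich acinar cells, and 98.1% and 0.478% against deep serous cells. Outside the secretory genes these shares were 10.9% and 8.63%, and 21.2% and 6.96%. The median ratio of all genes was 4.87 on the plain scale and 1.21 on the second against *Dcpp*-rich cells, 7.96 and 1.37 against deep serous cells, and 0.750 and 0.879 against luminal duct cells. Of 14 serous acinar genes, 10 were lower than in *Dcpp*-rich cells and 12 lower than in deep serous cells.

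Markers of other cell types gave few UMIs in most members. On the second scale all 13 immune, all 8 endothelial, all 8 mesenchymal and all 4 erythroid genes compared were lower than in all other barcodes, beside 14.1% of all genes. The rule set *Ptprc* to 0 while the other barcodes hold the *Ptprc*-positive ones, so that comparison is not independent of the rule for immune genes. Also on the second scale, against groups whose rules set *Ptprc* to 0, immune genes were lower for 11 of 11 (*Dcpp*-rich), 9 of 11 (deep serous) and 7 of 10 (luminal duct), beside 8.63%, 6.96% and 12.8% of all genes. None of 9 was lower than in deep serous cells on the plain scale and 3 were higher, beside 98.1% of all genes higher. On the plain scale 3 of 7 endothelial and 3 of 6 mesenchymal genes were lower, beside 3.34% of all genes. Against deep serous cells on the second scale the 2 mesenchymal genes with enough UMIs, *Col1a2* (3.29) and *Dcn* (5.52), were higher, beside 21.2% of all genes. *Cd3e*, *Cd79a*, *C1qc*, *Cldn5*, *Pdgfra* and *Des* had no UMI. Of these only *C1qc* and *Pdgfra* had enough UMIs in the other barcodes to be compared on the second scale. *Cd74* was found in 2.95% of thinned members and 33.2% of thinned *Ptprc*-positive barcodes. The 15 immune genes together gave at least 3 UMIs in 5 members and at least 10 in 1. Endothelial markers gave at least 10 in 3 and mesenchymal markers in 3. Immune genes gave at least 1 UMI in 64 members (27.0%). Basal and myoepithelial genes gave at least 1 UMI in 28 members (11.8%) and at least 10 in 11 (4.64%). Of 10 such genes only *Cnn1*, calponin, at 4.88, was called higher than in all other barcodes on the second scale and none lower, beside 7.77% and 14.1% of all genes. *Cnn1* (2.34) was higher and 5 of the 10 were lower than in luminal duct cells, beside 4.45% and 12.8%. Those were *Krt5* (0.15), *Krt14* (0.37), *Krt15* (0.25), *Trp63* (0.34) and *Dst* (0.33). Of 7 compared, 5 were higher than in *Dcpp*-rich and 7 than in deep serous cells, beside 10.9% and 21.2%. *Acta2*, smooth muscle actin, had a level of 1.49 over all members, but was found in only 7.59% of them, and *Krt14* in 5.06%. Members of at least 5000 UMIs held 152 *Acta2* and 68 *Krt14* UMIs. Those of 2500 to 5000 UMIs held 1 and 0, and those under 2500 held 2 and 0. The levels of these genes thus rest on few, deep members.

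The rules of other secretory groups were also met by 9 members (3.80%), 2 by *Dcpp* genes, 1 by *Mucl2*, 2 by *Muc19* and 5 by kallikreins. These few cells weigh on abundant genes: 1 cell held 47.1% of the members' *Dcpp3* UMIs, and 5 cells held 69.8% of those of *Klk1*. Doublets were not called, and the part of mixed droplets in these cells was not tested.

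The members also differed among themselves. As a description, since *Smgc* is the value that chose them, they were split at 1000 and 2000 *Smgc* UMIs per 10000 into 57, 105 and 75 cells, and levels were taken per 10000 UMIs outside *Smgc*, so that *Smgc* itself did not dilute them. *Pip* was at 119 (115 to 123), 203 (199 to 208) and 328 (320 to 336) from the lowest to the highest band. *Col11a1* was at 1.22, 3.52 and 5.93, *Aqp5* at 2.45, 5.36 and 6.99, *Cldn10* at 2.49, 4.18 and 6.03, and *Lman1l* at 0.334, 1.01 and 1.35. *Agr2* was at 0.148 (0.0404 to 0.380), 0.640 and 0.917 (0.552 to 1.43). Not every acinar gene followed this order. *Mucl2* was at 968, 692 and 610, *Prol1*, another serous secretory product, at 33.1, 25.1 and 19.8, and *Bhlha15* at 0.371, 0.517 and 0.434 with overlapping intervals.

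Keratins and some duct genes had the opposite order. *Krt8* was at 18.6 (17.0 to 20.3), 11.2 (10.2 to 12.3) and 6.99 (5.90 to 8.23), *Krt18* at 29.6, 21.7 and 15.9, and *Krt7* at 2.49, 1.03 and 0.386. *Wfdc18*, a small protease-inhibitor-like secreted protein, was at 142 (138 to 147), 73.2 (70.6 to 75.9) and 9.89 (8.58 to 11.3). *Esp4* was at 4.68, 2.95 and 0.820, *Slc13a2* at 0.742, 0.664 and 0.0965 and *Slc9a3* at 0.742, 0.492 and 0.0482. *Wfdc2* was at 2.52, 0.640 and 0.0965. *Ehf*, an epithelial ETS factor, was at 4.08, 2.98 and 0.724. *Sox9* kept nearly the same level in all 3 bands, 7.94, 8.51 and 7.67, with overlapping intervals. *Gstt1* was at 1.15 (0.782 to 1.63), 1.23 and 1.78 (1.26 to 2.46), and *Slc12a2* at 10.8 (9.63 to 12.2), 12.0 and 14.7 (13.1 to 16.5), so not all duct genes were lowest in the *Smgc*-richest band. *Prlr* was at 3.53 (2.85 to 4.31) in the lowest band and at 6.27 and 5.88 in the others. Median depth was 3503, 3736 and 3275 UMIs in the bands, and the mean number of UMIs outside *Smgc* was 4728, 3871 and 2764 per cell. The genes of the opposite order were also higher in deeper members. In members under 2500, of 2500 to 5000 and of at least 5000 UMIs *Esp4* was at 1.14, 1.19 and 4.59, *Krt7* at 0.311, 0.406 and 2.16 and *Krt8* at 9.54, 10.3 and 14.5. *Pip* was at 227, 264 and 163 in the same order. The part of depth in the order of the *Smgc* bands was not tested. Without the 9 members that met another secretory rule the lowest band had *Pip* at 118, *Krt8* at 20.8 and *Wfdc18* at 157. The same exclusion took *Mucl2* in that band from 968 to 717, *Agr2* from 0.148 to 0 and *Muc19* from 6.27 to 1.06. *Wfdc18* is not particular to ducts in these data: its level was 127 in luminal duct and 119 in *Dcpp*-rich acinar cells but 5.74 in kallikrein-rich duct cells.

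**Figure D5:**
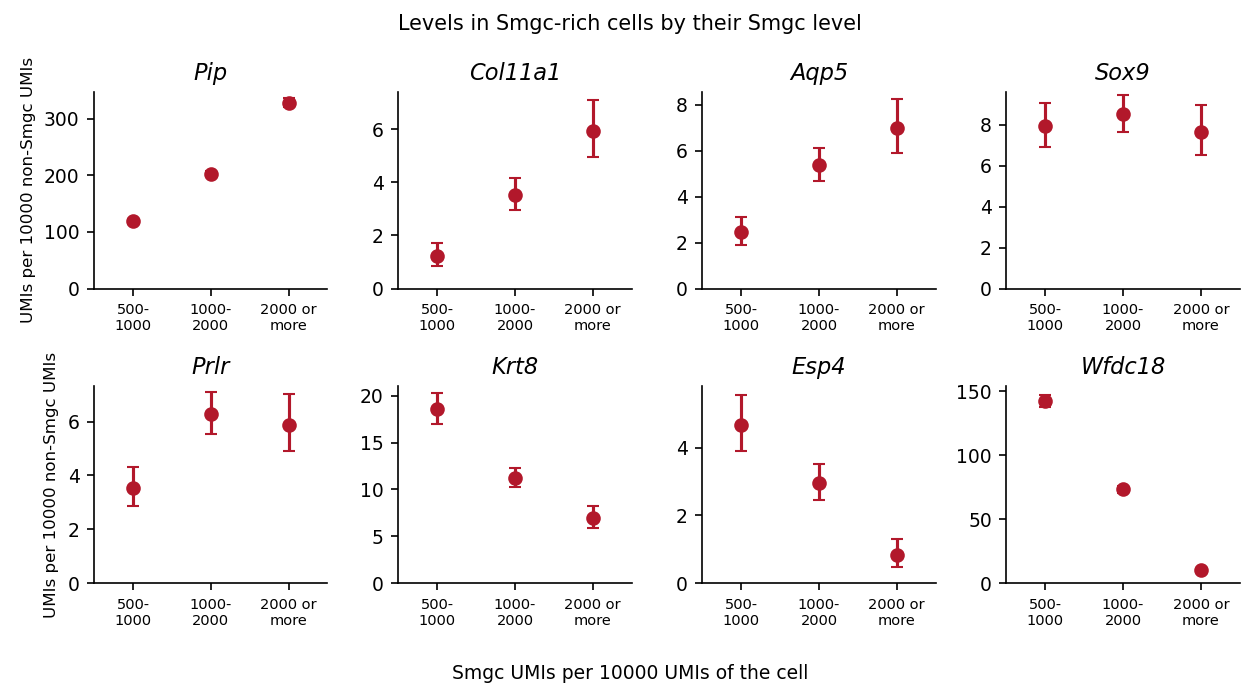
Levels of 8 genes per 10000 UMIs outside *Smgc* (linear axes from 0, 1 panel per gene) in 3 bands of *Smgc* content (57, 105 and 75 cells), with exact Poisson 95% intervals. *Pip*, *Col11a1* and *Aqp5* are highest in the *Smgc*-richest band, while *Krt8*, *Wfdc18* and *Esp4* are lowest there.

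As a description of the cells that *Smgc* itself chose, Spearman correlations between *Smgc* per 10000 UMIs and levels per 10000 UMIs outside *Smgc* were 0.39 for *Pip*, 0.36 for *Col11a1*, 0.23 for *Aqp5*, -0.40 for *Wfdc18*, -0.35 for *Krt8* and -0.35 for *Esp4* (237 cells of 1 matrix). Other serous products gave -0.29 (*Prol1*), -0.18 (*Car6*) and -0.13 (*Mucl2*). *Smgc* content had a correlation of -0.11 with total UMIs and 0.01 with the mitochondrial share. On the levels outside *Smgc*, *Wfdc18* had correlations of 0.66 with *Esp4*, 0.67 with *Ehf*, 0.47 with *Slc13a2* and -0.35 with *Pip*. It was present in 151 members, with a median of 3.81 and an upper quartile of 46.6 UMIs per 10000 and a maximum of 605, so a minority of members carried most of it. *Wfdc18* had a correlation of 0.38 with total UMIs, and *Esp4* and *Ehf* of 0.49 each. For *Wfdc18*, members of at least 5000 UMIs had 126 per 10000 UMIs outside *Smgc* against 21.5 in those under 2500. The share of mixed droplets in this *Wfdc18*-high subset was not tested.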

How the data were processed

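The authors deposited raw UMI counts, without normalization, in 1 matrix whose header names Cell Ranger 6.0.1. The submitters' processing notes also name Seurat 4.1.1 and mm10. All 15707 barcodes were kept, with 125100595 UMIs and a median of 2608 UMIs and 689 genes. Glands had been dissociated with enzymes. No doublet caller was run.

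Members, groups and gene lists were chosen with earlier results of these data known. Levels are summed UMIs per 10000 with exact Poisson 95% intervals, and shares have exact Clopper-Pearson intervals. Ratios have exact conditional binomial intervals. A gene entered a comparison with at least 50 UMIs in both groups together and at least 5 expected or counted in members. Named genes are the 3 markers, 21 lists, the 20 highest and 10 lowest ratios with a UMI in at least 10% of cells, the 10 most abundant genes and the 5 highest ratios against each of 3 groups. Secretory genes left out of the second scale are *Mucl2*, *Pip*, *Smgc*, *Dcpp*, *Scgb* and *Klk1* family genes. Positions are from GENCODE M21 (GRCm38) by Ensembl identifier. Steps were tested on simulated data. Some members of the lists are counted but not reported here by name. The software was Python 3.11.15 with pandas 2.3.3, numpy 2.4.6 and scipy 1.17.1, and matplotlib 3.10.9 for plots. The alternatives were other thresholds, scales, filters on cells, doublet and free-RNA settings.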

Additional observations from a re-analysis of the deposited data

How the results depend on the processing

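Of 102 counts of members and genes recomputed under the alternatives, 78 stayed within 1.5 times the reported count. Of 150 levels 65 moved by more than their counting interval, as did 64 of 150 log2 ratios, beside 2 called ones that changed sign, and 5 of 6 shares. The number of members was 270 at a threshold of 300 and 180 at 1000. It was 236 with the filter on cells, 242 without the rule on *Ptprc* and 213 without the deepest 10%. In an alternative chosen after seeing the data it was 228, without the 9 members that met another secretory rule. Genes at least 2-fold higher and lower moved with the scale and with the minimum of UMIs. On the plain scale they were 7767 and 307 against all other barcodes and 6543 and 80 against *Dcpp*-rich acinar cells. Against deep serous cells they were 7795 and 38 on that scale, and against luminal duct cells 218 and 1444. Outside the secretory genes they were 784 and 1426 against all other barcodes, 779 and 617 against *Dcpp*-rich acinar, 1760 and 577 against deep serous and 329 and 948 against luminal duct cells, and without *Smgc* alone 337 and 941 against luminal duct cells. With means over cells they were 2870 and 693 against all other barcodes, and 132 were lower than in *Dcpp*-rich cells. At a fold of 4 on the plain scale, 2621 were higher than in all other barcodes and 49 lower than in *Dcpp*-rich cells. Against luminal duct cells this fold left 61 higher and 297 lower. With every gene that had a UMI, on the plain scale, they were 11494 and 3359 against *Dcpp*-rich and 12319 and 3323 against deep serous cells. Against luminal duct cells they were 1363 and 5494, and 6984 were lower than in all other barcodes. The log2 ratio against all other barcodes changed sign for *Aqp5* (1.23 to -0.28) and *Wfdc18* (1.22 to -0.30) outside the secretory genes, and for *Pip*, which was not called on the plain scale (0.14 to -1.37). No paired analysis was possible because the matrix counts as 1 sample. Free RNA was estimated at 236 UMIs of secretory genes per barcode. Without replicates, the spread between mice and glands was not measured, and genes with few UMIs rest on wide intervals.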

Other observations

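A list of 18 genes of mevalonate and cholesterol synthesis, the pathway that builds sterols from acetyl-CoA, was drawn up after their values had been seen, and is a description only. All 18 were at least 2-fold higher in *Smgc*-rich cells than in all other barcodes per 10000 UMIs, with a median ratio of 8.00 against 3.23 for all genes, of which 84.5% were higher. Outside the secretory genes 14 of 18 were higher and none lower, with a median of 2.80 against 1.08, beside 7.77% of all genes higher. *Fdps*, farnesyl diphosphate synthase, had a level of 3.07 (2.75 to 3.43) in 52.7% of members and a ratio of 6.59 (5.84 to 7.42). Luminal duct cells had 0.561 and deep serous cells 0.101 per 10000. *Idi1*, the isomerase before it, had a ratio of 5.88 (4.55 to 7.52) and *Sqle*, squalene epoxidase, 5.55 (4.00 to 7.54). Against luminal duct cells 11 of 16 genes were higher and none lower on the second scale, beside 4.45% of all genes higher. *Fdps* was at 1.71, 3.37 and 6.61 per 10000 UMIs outside *Smgc* in the bands from low to high *Smgc*.

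Of 13 acute phase and clotting proteins, a list also drawn up after the values had been seen, 6 had enough UMIs and 3 were higher and none lower than in all other barcodes on the second scale, beside 7.77% and 14.1% of all genes. Of the 4 compared with luminal duct cells *Fgg* (35.5) was higher and *Lcn2* (0.42) and *Cp* (0.32) were lower, beside 4.45% and 12.8%. Beside *Fgg* and *Hp* this was *Fgb*, the fibrinogen beta chain, with 40 UMIs in 5.49% of members and a ratio of 69.4 (40.9 to 120). *Fgb* lies 25091 bases from *Fgg* on chromosome 3. It had no UMI in luminal duct, kallikrein-rich duct, mucous or *Dcpp*-rich acinar cells. *Fga*, the alpha chain, had none in members and too few in the other barcodes to be compared.

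The non-coding genes *Gm44410* and *A530053G22Rik*, both among the 20 highest ratios, lie 86248 bases apart on chromosome 6.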
